A study of Mus musculus with 2 samples.

Results

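*Ereg*, *Areg*, *Hbegf* and *Errfi1* belong to the epidermal growth factor (EGF) receptor system. The first 3 encode the ligands epiregulin, amphiregulin and heparin-binding EGF-like growth factor, and *Errfi1* encodes the receptor inhibitor MIG6. These are 4 of the 27031 genes listed for 1 single-cell capture of immune cells from mouse tumors. They were chosen by name with their counts by cell type and by treatment group in this capture already known, so the levels and ratios of these genes are a description from which no test is drawn.

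EGF receptor ligands are made as membrane proteins whose outer part carries the EGF-like domain. Proteases of the ADAM family, above all ADAM17, cut this part free, and it then binds the EGF receptor or a related ErbB receptor on the same or a neighboring cell. Receptor signaling through the MAP kinases induces its own inhibitors, of which MIG6 binds the kinase domain of the receptor. Macrophages in wounds and tumors are a known source of these ligands, and epithelial and stromal cells are among those that carry the receptor.

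Female C57BL/6 mice aged 6 to 8 weeks carried subcutaneous tumors of MC38, a mouse colon carcinoma line. The control group received vehicle and the other group telmisartan, a blocker of the angiotensin II receptor AT1 that also activates PPARG, at 5 mg/kg by daily gavage from tumor implantation to harvest on day 13. Both groups carried the same tumor and neither had a genetic change. Live CD45+ cells were sorted from digested tumors, pooled from 5 mice per group, marked with 1 Sample Tag per group (an antibody-bound oligonucleotide) and run together on BD Rhapsody, which pairs single cells with barcoded beads in microwells. The pools hide differences between mice, and the sort leaves out tumor cells and most other cells that lack CD45.

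The counts comprised 107214449 unique molecular identifiers (UMIs, each counting 1 captured molecule) in 20726 putative cells. Sample Tag reads placed 8738 cells in the control and 10222 in the telmisartan-treated group. Of these, 5078 and 4833 were within the quality limits, and 4535 and 4434 were kept after likely doublets were removed. The kept control cells held 41591125 UMIs with a median of 8689 per cell, and the kept telmisartan-treated cells 30921742 with a median of 6357.5. For that reason a level is the number of UMIs of a gene per 1000000 UMIs of its cells (CPM). It is counted per molecule and not per gene length, and levels are not ranked between genes, except to name the most abundant gene of a marker or stress list. With 1 pool per group there was no replicate and no p-value. All intervals are 95% intervals for counting error, by the exact Poisson method for levels, the conditional binomial for log2 ratios and Clopper-Pearson for the share of cells. They do not cover differences between mice or between the handling of the pools.

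Macrophage-like cells were the main population, with 3706 control cells (81.7% of the kept cells) and 3358 telmisartan-treated cells (75.7%). They carried all 11 macrophage markers used for naming, whose summed level was 17899 CPM in control and 17062 CPM in telmisartan-treated cells, with *Lyz2* the most abundant. They fell into 6 clusters, of which cluster 2 was the largest in control (1332 cells, beside 409 telmisartan-treated) and cluster 1 in the telmisartan-treated group (1144 cells, beside 694 control). Dendritic cell-like cells numbered 359 and 296, T cell-like cells 72 and 113, and neutrophil-like cells 48 and 24. A further cluster of 350 control cells (7.72%) and 643 telmisartan-treated cells (14.5%), led by *Ly6c2*, *Slfn4* and *Plac8*, had a median of 2210 UMIs and was left unnamed. The macrophage markers summed to 9866 CPM in its control cells and 9796 CPM in its telmisartan-treated cells.

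Epiregulin was the ligand gene with the widest gap between the groups. *Ereg* had 597 UMIs in control macrophage-like cells and 150 in telmisartan-treated ones, levels of 16.0 CPM (14.7 to 17.3) and 5.61 CPM (4.74 to 6.58). The control level was 2.85-fold higher, a log2 ratio of telmisartan over control of -1.51 (-1.78 to -1.25). Among the 11004 genes with at least 100 UMIs in macrophage-like cells it was the 7th lowest ratio, where the median gene stood at -0.04 with quartiles of -0.20 and 0.13. Of the 4 genes, 0 were higher and 1, *Ereg*, was lower in telmisartan-treated macrophage-like cells by more than 1.5-fold, beside 4.46% higher and 2.18% lower among all 11004 genes. Because the gene was chosen with this contrast known, nothing is read from that count.

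*Ereg* was found in few macrophages. A UMI was found in 82 of 3706 control cells (2.21%, 1.76 to 2.74%) and 31 of 3358 telmisartan-treated cells (0.923%, 0.628 to 1.31%), with a highest count of 44 and 33 UMIs in a single cell. In control, 12 cells held at least 0.5 of all *Ereg* UMIs, and in the telmisartan-treated group 5 cells did. The UMIs of a cell are not independent of each other, so the counting interval of *Ereg* is too narrow. With the top cell of each group left out, a step added after the counts had been seen, the log2 ratio was -1.76 (-2.06 to -1.47).

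The depth of the cells differed, with medians of 9609 UMIs in control and 7359.5 in telmisartan-treated macrophage-like cells, so shares of cells were also taken after thinning every cell to 1000 UMIs. Of these cells, 3690 of 3706 and 3326 of 3358 were deep enough. *Ereg* then had a UMI in 33 of 3690 control cells (0.894%, 0.616 to 1.25%) and 14 of 3326 telmisartan-treated cells (0.421%, 0.230 to 0.705%). At 3000 UMIs per cell, a depth chosen after the data had been seen, it was 47 of 3456 cells (1.36%, 1.00 to 1.80%) and 19 of 3001 cells (0.633%, 0.382 to 0.987%). The share was higher in control at both depths, as the level over all macrophage-like cells was. This did not hold at every depth when the cells were split by UMIs into 4 equal bins, after the data had been seen. *Ereg* was even in the shallowest bin (647 to 5441.75 UMIs), with 10.5 and 10.7 CPM, a log2 ratio of 0.04 (-0.70 to 0.80). In the deeper bins it was -2.17, -1.59 and -1.72.

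Amphiregulin, a low-affinity ligand that macrophages and regulatory T cells release in damaged tissue, showed nearly equal levels in the same cells. *Areg* had 1710 UMIs in control macrophage-like cells and 1160 in the telmisartan-treated ones, or 45.8 CPM (43.7 to 48.0) and 43.4 CPM (40.9 to 45.9). The log2 ratio was -0.08 (-0.19 to 0.03), an interval that holds 0. A UMI was found in 309 control cells (8.34%, 7.47 to 9.27%) and 287 telmisartan-treated cells (8.55%, 7.62 to 9.54%), and after thinning to 1000 UMIs in 3.25% and 3.10%. At 3000 UMIs it was 5.12% (4.41 to 5.91%) and 5.80% (4.99 to 6.69%). The small difference had no steady direction, since 5 of 22 alternative settings put it above 0 and the lowest was -0.43. It also differed with depth. In the 4 bins of cells by UMIs, *Areg* was 0.70 (0.34 to 1.07) in the shallowest and -0.27 (-0.45 to -0.08) in the deepest.

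Heparin-binding EGF-like growth factor binds heparan sulfate as well as the EGF receptor. *Hbegf* had 749 and 454 UMIs, or 20.1 CPM (18.6 to 21.6) in control and 17.0 CPM (15.4 to 18.6) in telmisartan-treated macrophage-like cells. Its log2 ratio was -0.24 (-0.41 to -0.07), lower in the telmisartan-treated group by less than 1.5-fold. A UMI was found in 341 control cells (9.20%, 8.29 to 10.2%) and 260 telmisartan-treated cells (7.74%, 6.86 to 8.70%), and after thinning to 1000 UMIs in 1.57% (1.20 to 2.03%) and 1.56% (1.17 to 2.05%). At 3000 UMIs the shares were 4.57% (3.90 to 5.32%) and 3.77% (3.11 to 4.51%), a log2 ratio of shares of -0.28 (-0.64 to 0.08). *Hbegf* was spread over more cells than *Ereg*, with a median of 1 UMI in the cells that had any. In each group 63 cells held at least 0.5 of its UMIs.

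*Errfi1*, the feedback inhibitor, was detected in far more macrophages than the ligand genes. Its UMIs numbered 10782 in control macrophage-like cells and 7671 in the telmisartan-treated ones, or 289 CPM (283 to 294) and 287 CPM (280 to 293). The log2 ratio was -0.01 (-0.05 to 0.03), so the levels differed by less than the counting error. A UMI was found in 1836 control cells (49.5%, 47.9 to 51.2%) and 1709 telmisartan-treated cells (50.9%, 49.2 to 52.6%), and after thinning to 1000 UMIs in 709 of 3690 cells (19.2%, 18.0 to 20.5%) and 632 of 3326 cells (17.7 to 20.4%). At 3000 UMIs the shares were not even, with 32.0% (30.4 to 33.6%) in control and 37.0% (35.2 to 38.7%) in the telmisartan-treated group, a log2 ratio of shares of 0.21 (0.09 to 0.33). The direction of the difference in level was not fixed, since 3 of 22 alternative settings put it above 0 and the lowest was -0.35.

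Outside the cells named macrophage-like, the 4 genes parted. *Ereg* was found mainly in macrophage-like cells, with 11.7 CPM over both groups, against 1.20 CPM in the unnamed cluster (3 UMIs) and 0.614 CPM in dendritic cell-like cells (3 UMIs). No *Ereg* UMI was found in 185 T cell-like cells or in 72 neutrophil-like cells. Their median depths were 3286 and 1769 UMIs, and a cell without a UMI may still express the gene, so shares of cells are not compared here. Over both groups, the level in macrophage-like cells lay above the upper limits of the T cell-like (4.14 CPM), dendritic cell-like (1.79 CPM) and unnamed (3.51 CPM) cells. It was not above that of the neutrophil-like cells (25.6 CPM). In control it was 16.0 CPM, above the T cell-like limit of 8.43 CPM. In the telmisartan-treated group it was 5.61 CPM, below the T cell-like limit of 8.15 CPM.

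*Areg* was found in T cell-like as well as macrophage-like cells. Over both groups it stood at 55.0 CPM in T cell-like cells (40.7 to 72.8), 44.8 CPM in macrophage-like cells (43.2 to 46.4), 28.9 CPM in the unnamed cluster (22.6 to 36.3) and 19.2 CPM in dendritic cell-like cells (15.5 to 23.5). The intervals of the first pair overlap, as do those of the last pair, and each of the first pair lies above each of the last. This holds for both groups pooled. In control the T cell-like level was 36.6 CPM (20.9 to 59.4). Its interval holds that of macrophage-like cells (43.7 to 48.0) and overlaps that of dendritic cell-like cells (18.7 to 30.5). No *Areg* UMI was found in 72 neutrophil-like cells (upper limit 25.6 CPM). Over both groups the T cell-like level was 123% of the macrophage level, and that of *Hbegf* 89.8%. The macrophage genes *Lyz2*, *C1qa* and *Apoe* reached 19.9%, 34.2% and 50.9% of theirs in the same cells. These shares are pooled, and the groups differed. In control, *Apoe* was lower in T cell-like than in macrophage-like cells (880 and 1152 CPM). *Areg* had 36.6 CPM (16 UMIs) in T cell-like and 45.8 CPM in macrophage-like cells, with overlapping intervals. In the telmisartan-treated group *Apoe* had 910 and 2603 CPM, and *Areg* 72.9 and 43.4 CPM. Of the 185 T cell-like cells, 20 held the 49 *Areg* UMIs.

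Between the groups, *Areg* in T cell-like cells stood at 36.6 CPM (16 UMIs) in control and 72.9 CPM (33 UMIs) in the telmisartan-treated group, a log2 ratio of 1.00 (0.09 to 1.96). The class joins unlike clusters. Cluster 13, led by *Foxp3*, was even with 15 and 13 UMIs (0.02, -1.17 to 1.19), and cluster 9, led by *Gzmc*, had 1 and 20 UMIs. Markers of the class were not even either. The 8 T cell markers, all detected (*Trac* most abundant), summed to 3537 CPM in control and 4615 CPM in the telmisartan-treated group, the 11 macrophage markers, all detected (*Lyz2*), to 5387 and 3215 CPM and the 3 NK cell markers, all detected (*Klra8*), to 133 and 59.7 CPM. Dendritic cell markers summed to 80.0 and 148 CPM (35 and 67 UMIs) and endothelial markers to 68.5 and 30.9 CPM (30 and 14 UMIs). The part of these markers was not tested. In dendritic cell-like cells, which take up antigen and present it to T cells, *Areg* over the class was lower in the telmisartan-treated group, with 24.1 CPM (69 UMIs) and 12.4 CPM (25 UMIs), a log2 ratio of -0.96 (-1.68 to -0.28). Without the top cell of each group the dendritic value was -0.78 (-1.61 to -0.01). The class value rests mainly on cluster 10 (109 cells, led by *Fscn1*), with 36 UMIs in 6 control cells and 2 UMIs in 2 telmisartan-treated cells, while the largest dendritic cluster, cluster 7 (460 cells), had 28 and 23 UMIs, a log2 ratio of 0.25 (-0.61 to 1.10). The summed level of the 11 macrophage markers, all detected in dendritic cell-like cells, was lower as well, 3682 CPM in control and 2982 CPM in the telmisartan-treated group, with *Lyz2* (-0.32) the most abundant and *C1qa* at -1.09 (-1.46 to -0.73). In cluster 10 *C1qa* had 15 and 2 UMIs and *Lyz2* 199 and 80, 99 of the 199 in 1 cell, and without the top cells *Lyz2* was 0.08 (-0.38 to 0.53). Over the dendritic cell-like class, epithelial or MC38 markers summed to 43.3 and 17.3 CPM (124 and 35 UMIs) and neutrophil markers to 6.63 and 1.48 CPM (19 and 3 UMIs). T cell markers went the other way, with 8.02 and 20.3 CPM (23 and 41 UMIs). The part of these markers in the *Areg* value was not tested. In the unnamed cluster *Areg* had 15 and 57 UMIs, or 17.6 and 34.7 CPM, a log2 ratio of 0.98 (0.14 to 1.91). All of these *Areg* values rest on few cells.

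*Hbegf* had its highest level in neutrophil-like cells, 48.7 CPM, but from 7 UMIs and with an interval of 19.6 to 100 CPM. It overlaps those of macrophage-like cells (18.8 CPM, 17.7 to 19.9), T cell-like cells (16.8 CPM, 9.43 to 27.8) and the unnamed cluster (17.2 CPM, 12.5 to 23.2). Dendritic cell-like cells had 10.4 CPM (7.77 to 13.7). In dendritic cell-like cells *Hbegf* had 16 UMIs (5.58 CPM) in control and 35 (17.3 CPM) in the telmisartan-treated group, a log2 ratio of 1.63 (0.74 to 2.59). A single cell held 19 of the 35 UMIs, and without the top cell of each group the value was 0.91 (-0.26 to 2.13). T cell-like cells had 1 control and 14 telmisartan-treated UMIs, a log2 ratio of 3.76 (1.04 to 9.16), with 9 of the 14 in 1 cell. Without the top cells no control UMI is left and the lower limit is -0.16. In the unnamed cluster *Hbegf* was lower in the telmisartan-treated group, with 25 and 18 UMIs and a log2 ratio of -1.42 (-2.38 to -0.49).

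Over both groups, *Errfi1* stood at 301 CPM (279 to 323) in the unnamed cluster and 288 CPM (284 to 292) in macrophage-like cells. It was lower in dendritic cell-like (96.6 CPM, 88.0 to 106), neutrophil-like (55.6 CPM, 24.0 to 110) and T cell-like cells (37.1 CPM, 25.5 to 52.1). Dendritic cell-like *Errfi1* was 99.8 CPM in control and 92.0 CPM in the telmisartan-treated group, a log2 ratio of -0.12 (-0.39 to 0.15). Of the 4 genes it was the single one with at least 100 UMIs there, and it passed 1.5-fold in neither direction, which 3.95% of 5774 genes did upward and 3.55% downward. Within the unnamed cluster *Errfi1* had 398 CPM in control and 250 CPM in the telmisartan-treated group, a log2 ratio of -0.67 (-0.88 to -0.46), unlike the equal levels in macrophage-like cells. The cluster thus lay above macrophage-like cells in control (289 CPM) and below them in the telmisartan-treated group (287 CPM).

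**Figure D1:**
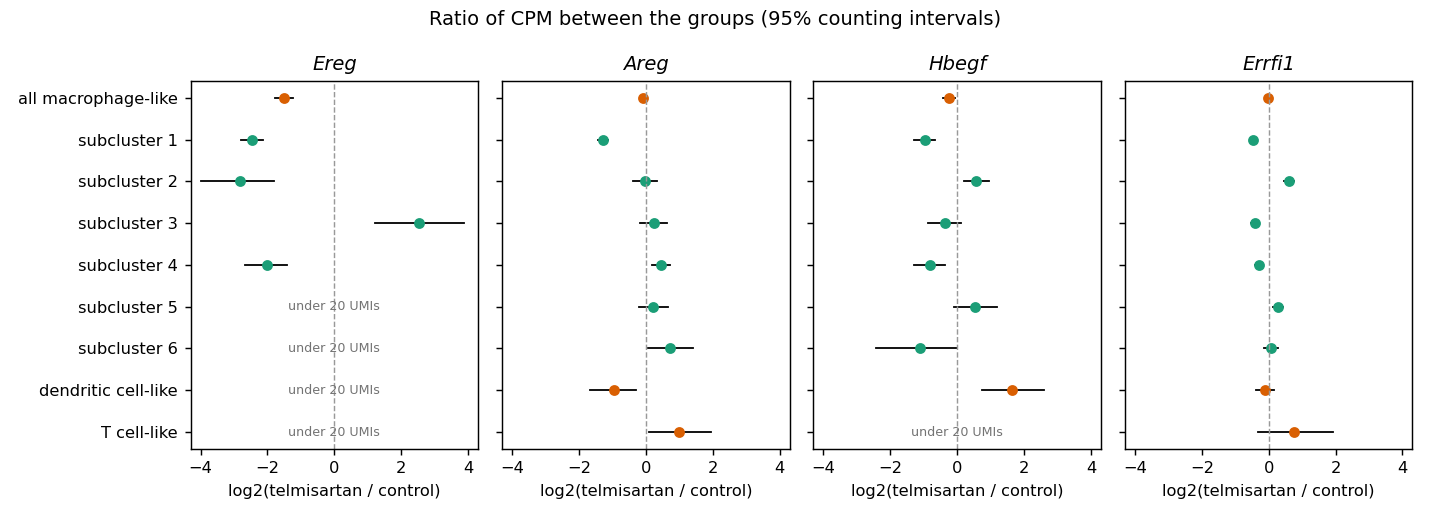
The log2 ratio of CPM, telmisartan over control, of each gene in all macrophage-like cells, in each of the 6 macrophage-like subclusters, in dendritic cell-like and in T cell-like cells. Points are ratios, orange for classes and green for subclusters, lines are 95% counting intervals, and places with under 20 UMIs carry no point. *Ereg* stands at -1.51 in all macrophage-like cells, while *Errfi1* at -0.01 lies on the dashed line of equal levels.

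Macrophage-like cells were clustered again, with the genes of the EGF family left out of the clustering, into 6 subclusters. Subcluster 1 (663 control and 1126 telmisartan-treated cells) was led by *Dcstamp*, *Areg*, *Slpi*, *Fpr1* and *Cxcl3*, and subcluster 2 (729 and 772 cells) by *Gas6*, *Cbr2* and *Folr2*. Subcluster 3 (1173 and 301 cells) was led by *Ung*, *Chil3* and *Ccr2*, and subcluster 4 (424 and 660 cells, median 3929 UMIs) by the interferon-induced genes *Ifit3* and *Rsad2*. Subcluster 5 (375 and 335 cells) carried the mitotic genes *Hmmr*, *Aspm* and *Ccna2*, and subcluster 6 (342 and 164 cells) *Serpina3g*, *Iigp1* and *Cxcl9*. Subcluster 3 was the largest in control (31.7%) and subcluster 1 in the telmisartan-treated group (33.5%). With 1 pool per group, a subcluster that is mostly of 1 group may reflect that pool, and no sizes are compared.

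In control cells the 2 highest levels of each of the 4 genes were in subclusters 1 and 4, and within subcluster 1 all 4 were lower in the telmisartan-treated group. *Ereg* there had 58.3 CPM (421 UMIs) in control and 10.6 CPM (97 UMIs) in the telmisartan-treated group, a log2 ratio of -2.46 (-2.79 to -2.14). *Areg* had 140 CPM (131 to 149) and 57.4 CPM (52.6 to 62.5), a log2 ratio of -1.28 (-1.44 to -1.13), unlike the nearly equal levels over all macrophage-like cells. For *Hbegf* the levels were 30.7 and 15.6 CPM, a log2 ratio of -0.98 (-1.29 to -0.67). For *Errfi1* they were 599 and 431 CPM, a log2 ratio of -0.48 (-0.54 to -0.41). Subcluster 1 held 17.9% of control and 33.5% of telmisartan-treated macrophage-like cells, and a level over all macrophage-like cells depends on these shares as well as on the levels within subclusters.

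In subcluster 4, the ligands split. *Ereg* had 39.8 CPM (86 UMIs) in control and 9.80 CPM (30 UMIs) in the telmisartan-treated group, a log2 ratio of -2.02 (-2.68 to -1.41), with 44 of the 86 UMIs in 1 cell. *Hbegf* was likewise lower, with 42.2 and 23.8 CPM and a log2 ratio of -0.82 (-1.29 to -0.36). *Areg* went the other way and was higher in the telmisartan-treated group, with 78.3 and 107 CPM and a log2 ratio of 0.46 (0.18 to 0.73). *Errfi1* stood at 533 and 432 CPM, a log2 ratio of -0.30.

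Subcluster 2, whose leading genes *Folr2* and *Cbr2* are also found in resident macrophages, had the lowest control level of *Errfi1* of the 6. It was 97.3 CPM, against 148 CPM in the telmisartan-treated group, a log2 ratio of 0.61 (0.47 to 0.75), opposite to that in subcluster 1. *Hbegf* likewise had 15.0 and 22.3 CPM, a log2 ratio of 0.57 (0.20 to 0.94). *Ereg* had 9.94 CPM (74 UMIs) in control and 1.41 CPM (9 UMIs) in the telmisartan-treated group, a log2 ratio of -2.81 (-4.00 to -1.81), with 30 of the 74 and 7 of the 9 UMIs in 1 cell each. Without these cells it was -4.23 (-7.32 to -2.30). *Areg* was even at 19.7 and 19.3 CPM.

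In subcluster 3, *Ereg* was rare in control, with 0.852 CPM (10 UMIs) against 4.92 CPM (13 UMIs) in the telmisartan-treated group, a log2 ratio of 2.53 (1.23 to 3.88). A single cell held 11 of the 13 UMIs, and without the top cell of each group the ratio was 0.15 (-3.12 to 2.48). *Areg* had 20.5 and 24.2 CPM there, a log2 ratio of 0.24 (-0.18 to 0.64), but 30 of its 64 telmisartan-treated UMIs were in 1 cell, and without the top cells it was -0.54 (-1.10 to -0.01). *Hbegf* had 20.4 and 15.9 CPM, a log2 ratio of -0.36 (-0.87 to 0.12) that without the top cells was -0.54 (-1.10 to -0.03). *Errfi1* had 283 and 213 CPM, a log2 ratio of -0.41.

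The mitotic subcluster 5 had 7 *Ereg* UMIs in 710 cells. *Errfi1* (129 and 157 CPM) was somewhat higher in its telmisartan-treated cells, with a log2 ratio of 0.28 (0.13 to 0.44). The intervals of *Areg* (17.7 and 20.7 CPM, log2 ratio 0.22, -0.22 to 0.66) and *Hbegf* (7.65 and 11.1 CPM, 0.53, -0.11 to 1.18) hold 0. Subcluster 6, with the interferon-gamma-induced chemokine gene *Cxcl9* among its leading genes, had no *Ereg* UMI in 506 cells, an upper limit of 1.08 CPM in control and 2.67 CPM in the telmisartan-treated group. *Areg* had 14.4 CPM (49 UMIs) and 23.9 CPM (33 UMIs) there, a log2 ratio of 0.73 (0.05 to 1.40), *Hbegf* 12.6 CPM (43 UMIs) and 5.79 CPM (8 UMIs), a log2 ratio of -1.12 (-2.42 to -0.02). Without the top cell of each group both intervals hold 0, at 0.69 (-0.20 to 1.54) for *Areg* and -0.97 (-2.39 to 0.22) for *Hbegf*. *Errfi1* was even, with 166 and 175 CPM.

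**Figure D2:**
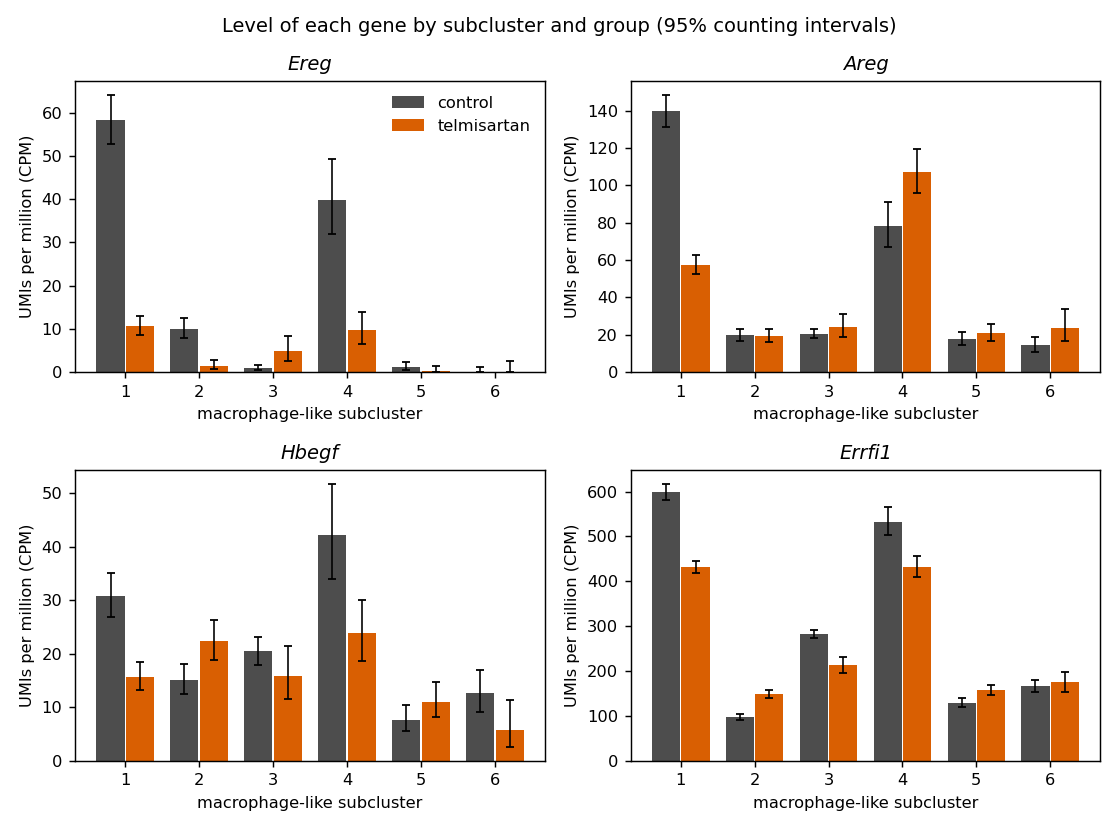
Level of each gene (CPM, vertical axis from 0) in the 6 macrophage-like subclusters, with grey bars for control, orange bars for telmisartan-treated cells and 95% Poisson counting intervals. *Ereg* in control reaches 58.3 CPM in subcluster 1 and 39.8 CPM in subcluster 4, where the telmisartan-treated bars stand at 10.6 and 9.80 CPM.

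Weighting the subcluster levels of both groups by the UMI shares of the control cells, which holds the make-up of the macrophages equal, gave log2 ratios of -1.84 for *Ereg*, -0.43 for *Areg*, -0.33 for *Hbegf* and -0.25 for *Errfi1*. All 4 were lower than the ratios over all macrophage-like cells, and the median gene stood at -0.03 on this scale.

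*Ereg* and *Areg* were often found in the same macrophages. After thinning to 1000 UMIs, *Ereg* had a UMI in 17 of 120 control cells with *Areg* (14.2%, 8.47 to 21.7%) and in 16 of 3570 control cells without it (0.448%, 0.256 to 0.727%). In the telmisartan-treated group these were 4 of 103 cells (3.88%, 1.07 to 9.65%) and 10 of 3223 cells (0.310%, 0.149 to 0.570%). At 3000 UMIs per cell the shares were 13.6% and 0.701% in control and 5.17% and 0.354% in the telmisartan-treated group. Pearson's r between *Ereg* and *Areg* over the unthinned cells was 0.353 in control (3706 cells) and 0.143 in the telmisartan-treated group (3358 cells). After thinning to 1000 UMIs it was 0.259 and 0.0769. These values describe cells that share a library, and the unthinned cells differ in depth.

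*Errfi1* was more frequent in cells with *Areg*. In control it had a UMI in 48 of 120 cells with *Areg* (40.0%, 31.2 to 49.3%) and in 18.5% of those without. In the telmisartan-treated group it was 37 of 103 (35.9%, 26.7 to 46.0%) and 18.5%. With *Hbegf*, *Errfi1* was found in 22 of 58 control cells (37.9%, 25.5 to 51.6%) against 18.9% of the others, and in 8 of 52 telmisartan-treated cells (15.4%, 6.88 to 28.1%) against 19.1%. At 3000 UMIs the telmisartan-treated shares were the other way round, 54 of 113 cells with *Hbegf* (47.8%, 38.3 to 57.4%) against 36.5% of the others (34.8 to 38.3%), and the control shares were 47.5% and 31.2%. For *Areg* at that depth they were 54.2% and 30.8% in control and 54.0% and 35.9% in the telmisartan-treated group. At 1000 UMIs *Hbegf* and *Ereg* shared 2 control cells and 0 telmisartan-treated cells. All 4 genes were found together in 1 control cell and no telmisartan-treated cell, and none of them in 77.7% and 77.6% of the cells.

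The genes whose counts followed those of each ligand over single macrophages were ranked by Pearson's r, averaged over the groups, among 8280 genes. For *Ereg* they were *Areg* (mean r 0.248), the neutrophil-attracting chemokine gene *Cxcl3* (0.144), the interleukin gene *Il1a* (0.134), *Slpi*, *Lif*, *Fpr1*, *Inhba* and *Tnf*. For *Areg* they were *Ereg*, *Hilpda* (0.174), *Il1a* (0.172), *Cxcl3*, *Cxcl2*, *Ptgs2*, *Nfkbia* and *Dusp5*. *Hbegf* had weaker neighbors, led by *Ccl3* (0.113) and *Inhba* (0.0964), with *Srgn*, *Cxcl2*, *Sdc4*, *Mmp12*, *Cxcl3* and *Osm* after them. *Errfi1* was closest to *Cxcl2* (0.268), *Cd14* (0.254), *Vegfa* (0.249) and *Ptgs2* (0.247), then *Clec4d*, *Il1b*, *Thbs1* and *Cxcl3*. In counts this sparse such values are weak, and they are given as a ranking alone.

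*Ereg* and *Areg* lie side by side on chromosome 5 of the mouse genome build GRCm38, at chr5:91074622-91093646 and chr5:91139599-91148432, both on the plus strand with 45952 bases between them. *Hbegf* lies at chr18:36504927-36515805 on the minus strand and *Errfi1* at chr4:150853919-150868892 on the plus strand. An antisense gene overlaps *Ereg* (*Gm19610*, 9 UMIs in macrophage-like cells) and another *Errfi1* (*1700045H11Rik*, 16 UMIs). Whether the counting used strand is not given in the sources used here, so reads of such a pair may not be told apart. Within 500 kb of *Ereg* or *Areg*, 25 genes are annotated, 19 are listed in the counts and 8, these ligands included, had at least 100 UMIs. The others are the chemokine genes *Ppbp*, *Pf4*, *Cxcl3*, *Cxcl1* and *Cxcl2* and the folate enzyme gene *Mthfd2l*.

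The neighbors did not share a direction. *Ppbp*, a gene best known for its platelet chemokine, had 21.1 CPM in control and 7.81 CPM in telmisartan-treated macrophage-like cells, a log2 ratio of -1.43 (-1.66 to -1.21) close to that of *Ereg*. *Cxcl3* had 479 and 301 CPM, a log2 ratio of -0.67. *Cxcl1* was higher in the telmisartan-treated group, with 404 and 910 CPM and a log2 ratio of 1.17 (1.14 to 1.20). *Cxcl2* (0.31) and *Pf4* (0.17) also lay above 0. *Mthfd2l*, the nearest measured gene upstream of *Ereg*, lay at -0.29 (-0.51 to -0.07).

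**Figure D3:**
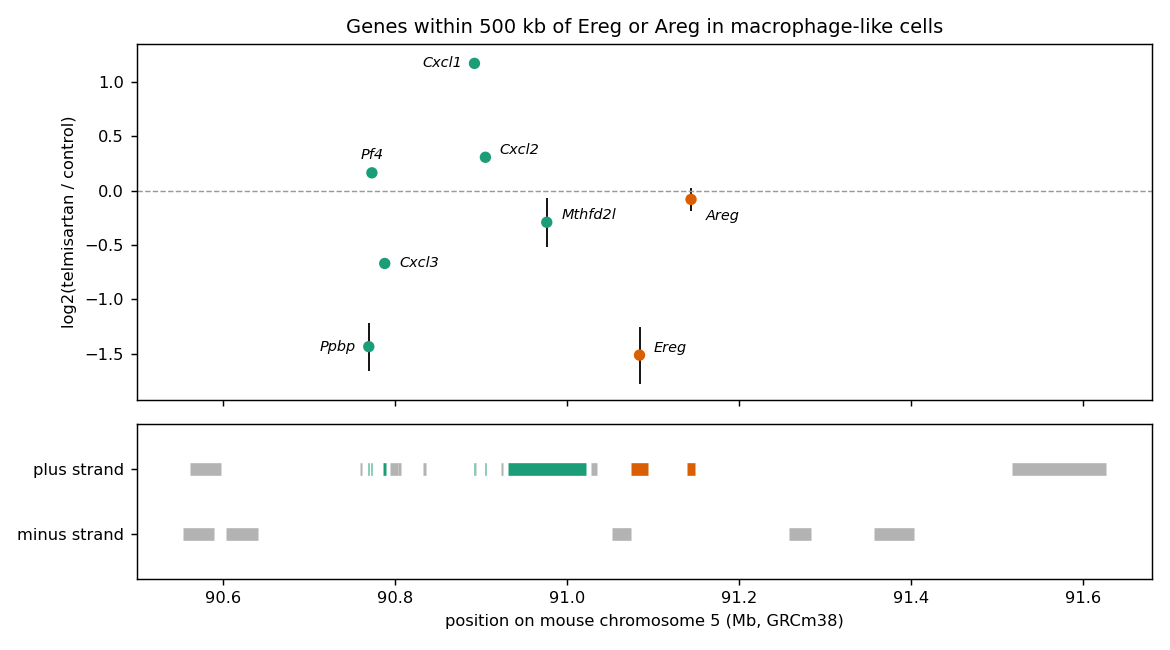
Genes within 500 kb of *Ereg* or *Areg* on chromosome 5 (horizontal axis, position in Mb on GRCm38). The upper panel gives the log2 ratio of telmisartan over control in macrophage-like cells, with 95% counting intervals, for the 8 genes with at least 100 UMIs. The lower panel gives each gene's extent and strand, orange for *Ereg* and *Areg*, green for the other measured genes and grey for the rest. *Ppbp* (-1.43) and *Ereg* (-1.51) are the lowest points and *Cxcl1* (1.17) the highest.

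Promoter sequence, from 250 bases before to 50 bases after an annotated start (RefSeq, GRCm38.p6), was at hand for 2 of the 4 genes, *Areg* and *Errfi1*. It was searched on both strands for the cAMP response element TGACGTCA, the letters bound by CREB-type factors that act downstream of prostaglandin and adenosine receptors, and for the AP-1 letters TGANTCA. Neither pattern contains the other. Of 32851 promoters, 588 (1.79%) held the first and 2565 (7.81%) the second. Both *Areg* and *Errfi1* held 1 cAMP response element and no AP-1 match, at 61 bases before the start in *Areg* and 51 in *Errfi1*. The other annotated start of *Errfi1* had neither. These stretches of 120 bases are shown, 5′ to 3′ on the plus strand with the element in capitals, because the same 8 letters stand at a like distance from the start of a ligand and of the receptor inhibitor. The *Areg* stretch (chr5:91139479-91139598) is intergenic and ends at the base before the start, and the *Errfi1* stretch (chr4:150854950-150855069) lies in an intron of the *Errfi1* transcript with the upstream start.
*Areg* promoter: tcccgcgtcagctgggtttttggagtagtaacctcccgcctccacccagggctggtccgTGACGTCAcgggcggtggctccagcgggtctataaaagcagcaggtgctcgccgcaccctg
*Errfi1* promoter: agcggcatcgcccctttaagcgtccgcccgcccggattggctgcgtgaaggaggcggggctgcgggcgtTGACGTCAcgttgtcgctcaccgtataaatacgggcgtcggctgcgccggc
A match is a run of letters and does not show that a factor binds there. The search matched 12 of the 16 genes of the prostaglandin and cAMP list described next, and 0 of them held the element in this window.

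That list takes in *Ptgs2*, which makes prostaglandins, the receptors for prostaglandin E and adenosine, and genes that cAMP induces. Its 16 genes were all measured in macrophage-like cells, 13 of them higher and 3 lower in the telmisartan-treated group, with a median log2 ratio of 0.36 beside -0.04 over all 11004 genes. Past 1.5-fold, 6 were higher and 0 lower. Of all 11004 genes, 42.9% were higher and 57.1% lower, 4.46% past 1.5-fold upward and 2.18% downward. *Nr4a3*, a nuclear receptor gene induced by cAMP, had 78.7 CPM in control and 223 CPM in the telmisartan-treated group (log2 ratio 1.51), and the cAMP-responsive *Crem* 86.6 and 165 CPM (0.93). *Ptgs2* itself had 933 and 1162 CPM (0.32). Most of the list was higher in the telmisartan-treated group, whereas *Ereg* was lower there.

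Of the 8 other ligands of the family, 4 reached 100 UMIs, all of them neuregulins, which bind ERBB3 and ERBB4 in place of the EGF receptor. *Nrg1* had 20.7 CPM in control and 36.8 CPM in the telmisartan-treated group, a log2 ratio of 0.83, and *Nrg4* 1.34 and 2.13 CPM (0.67). *Nrg2* was lower (-0.81, -1.35 to -0.30), and the interval of *Nrg3* (-0.26, -0.72 to 0.19) holds 0. Past 1.5-fold, 2 were higher (*Nrg1* and *Nrg4*) and 1 lower (*Nrg2*), beside 4.46% and 2.18% of all genes. *Egf* (89 UMIs), *Tgfa* (18), *Btc* (12) and *Epgn* (5), the remaining ligands of the EGF receptor, were under the minimum, so *Ereg*, *Areg* and *Hbegf* were the measured EGF receptor ligands of these macrophages.

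The receptors were near absent from these immune cells. *Egfr* had 42 UMIs in the 7064 macrophage-like cells and *Erbb2* 4, while *Erbb3* (1.61 and 1.57 CPM) and *Erbb4* (2.54 and 2.32 CPM) reached the minimum with even levels. Of the 11 genes of ligand shedding, 8 were measured, 4 higher and 4 lower, beside 42.9% and 57.1% of all genes. Their median log2 ratio was 0.00 and 0 were past 1.5-fold, beside 4.46% upward and 2.18% downward of all genes. *Adam17*, which cuts all 3 ligands, had 167 and 168 CPM, and *Adam10* 187 and 146 CPM, a log2 ratio of -0.36. *Adam8* had 815 and 880 CPM. The genes of 2 surface partners of heparin-binding EGF-like growth factor, *Cd9* (605 and 545 CPM) and *Cd44* (707 and 959 CPM), had log2 ratios of -0.15 and 0.44.

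Beside *Errfi1*, 15 other inhibitors of the receptor and the MAP kinases were listed, and 12 were measured, 6 higher and 6 lower with a median log2 ratio of -0.04. The phosphatase gene *Dusp5* had 207 CPM in control and 413 CPM in the telmisartan-treated group (log2 ratio 1.00), and *Dusp6*, which acts on the same kinases, 222 and 136 CPM (-0.71). They were the genes of this list past 1.5-fold, 1 in each direction, beside 4.46% upward and 2.18% downward of all genes. Of the 15 genes that relay the receptor signal, 10 were higher and 5 lower with a median of 0.04. *Gab1*, an adapter of the receptor, was the single one of them past 1.5-fold (42.9 and 74.1 CPM, 0.79). Of all 11004 genes, 42.9% were higher and 57.1% lower, 4.46% past 1.5-fold upward and 2.18% downward. The levels of *Errfi1* were even while those of *Dusp5* and *Dusp6* were not.

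Of 15 other growth factor and cytokine genes, 14 were measured, 9 higher and 5 lower, beside 42.9% and 57.1% of all genes. Their median log2 ratio was 0.22. *Il10* (8.17 and 39.5 CPM, 2.27) and *Il6* (18.9 and 42.6 CPM, 1.17) were those past 1.5-fold, both higher, where 4.46% of all genes were past it upward and 2.18% downward. *Il1a*, one of the genes closest to *Ereg* and *Areg* over single cells, had 563 and 451 CPM, a log2 ratio of -0.32.

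Immediate-early and heat shock genes, which tissue digestion can raise and which share inducers with these ligands, summed to 14695 CPM in control and 14023 CPM in telmisartan-treated macrophage-like cells, with *Fos* the most abundant. All 17 were measured, 8 higher and 9 lower with a median log2 ratio of -0.05, beside 42.9% and 57.1% of all genes. Past 1.5-fold, 1 was higher (*Ier2*, 0.68) and 0 lower, beside 4.46% and 2.18% of all genes. Single genes of this list were not even, with *Fos* at -0.50, *Jun* at -0.52, *Fosb* at 0.53 and *Egr1* at 0.54. The 8 T cell markers, all detected, summed to 10.6 and 12.4 CPM in macrophage-like cells (*Skap1* most abundant), the 7 dendritic cell markers to 12.8 and 13.1 CPM (*Ccr7*), the 4 neutrophil markers to 24.2 and 28.5 CPM (*Csf3r*) and the 3 endothelial markers to 21.1 and 20.9 CPM (*Pecam1*). The 4 fibroblast markers, all detected, summed to 7.45 and 12.4 CPM (*Col1a1*). Markers of type 2 innate lymphoid cells, a known source of amphiregulin, summed to 151 and 167 CPM, mostly from *Il7r* (140 and 152 CPM). The other markers of these cells were *Rora* (9.27 and 12.7 CPM), *Il1rl1* (2.17 and 1.31 CPM) and *Gata3* (0.402 and 0.262 CPM). Those of epithelial or MC38 cells (1.15 and 0.747 CPM, *Epcam*), NK cells (0.777 and 0.710 CPM, *Klrb1c*), mast cells or basophils (0.429 and 0.262 CPM, *Gata2*), eosinophils (0.455 and 0.747 CPM, *Ccr3*) and B cells (0.268 and 0.112 CPM, *Cd79a*) were near 0, and 1 of the 3 B cell markers had no UMI. The part of digestion stress or of other cells in the values of the 4 genes was not tested.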

How the data were processed

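The authors sequenced 1 BD Rhapsody capture, a gene expression library and a Sample Tag library of the same cells. They counted UMIs per gene and cell with the BD Rhapsody WTA Analysis Pipeline 1.11 against GRCm38 and the GENCODE M19 annotation, including introns, and corrected UMI errors by RSEC. What they deposited are these raw counts and counts of Sample Tag reads, neither normalized nor filtered. Both tables list the same 20726 cells. Tag 1 marks control and tag 2 telmisartan, and other tags held 0.0794% of 8041345 tag reads. The genes and lists described here were chosen with earlier results of these data known.

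A cell was given to a group with at least 75% of at least 10 tag reads on its tag. This left out 1580 cells split between tags and 186 with fewer reads. Limits were 150 to 5000 genes per cell and no more than 20% of UMIs from mitochondrial genes. The automatic threshold of Scrublet (scanpy 1.11.5) marked 0 cells, so the 942 cells with the highest scores were removed, 9.51% of those within the limits and the share of same-tag doublets that cells split between tags predict. Cells were clustered in Seurat 5.3.0 (R 4.3.3) on 2000 variable genes less 6 of the 16 EGF family genes, 30 principal components, 20 neighbors and a resolution of 0.5, and macrophage-like cells again at 0.45, the lowest step of 0.05 with 6 or more subclusters. A class other than macrophages was named from 3 or more markers that were each 4-fold or more above the rest of the cells, had 10 or more UMIs and were found in 10% of the cluster or more, and macrophage-like cells from the macrophage markers. Cluster 5 was left unnamed because its median UMI count was low beside that of its samples (a ratio of 0.313) with no marker among its leading genes. Names were rebuilt here, so a difference from the study may come from them.

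UMIs were summed per class and group and given as CPM, with at least 100 UMIs over both groups for a gene to enter the comparison over all genes. Genes named are the 4, those of the lists, the measured genes within 500 kb, the 8 most correlated per gene with at least 500 UMIs, and leading genes of clusters and subclusters. The step that computes ratios was checked on simulated data, which is a check of the method and not of a difference between the groups. Positions of genes come from GENCODE M21, which uses that build too. Python 3.11.15, numpy 2.4.6, scipy 1.17.1, pandas 2.3.3, matplotlib 3.10.9 and, for an alternative scaling, TMM factors of edgeR 4.0.16 were used. Alternatives changed the tag share (90%), the gene minimum (500), the gene maximum (none), the mitochondrial limit (10%), doublet removal, the resolution (0.3 and 0.8), the EGF genes in clustering, the scaling, the thinning and the cells counted, and for the comparison over all genes the UMI minimum and the fold. Tumor growth and immunohistochemistry were not analysed here.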

Additional observations from a re-analysis of the deposited data

Results flagged for a closer look

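The log2 ratios of telmisartan over control had opposite signs between cell types or subclusters in the following pairs, each with a counting interval clear of 0 when all cells are counted. Each group was 1 pool, so none of these differences was tested, and no cause was tested.

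*Areg* stood at 1.00 in T cell-like cells (49 UMIs) and at -0.96 in dendritic cell-like cells (94 UMIs). The first rests on cluster 9 (1 and 20 UMIs), with the *Foxp3* cluster at 0.02, and the second mainly on cluster 10 (36 and 2 UMIs), with the largest dendritic cluster at 0.25. The summed level of the macrophage markers in dendritic cell-like cells was lower too, 3682 CPM in control and 2982 CPM in the telmisartan-treated group, with *C1qa* at -1.09 (in cluster 10, 15 and 2 UMIs). In T cell-like cells the sum of macrophage markers was 5387 and 3215 CPM, and that of T cell markers 3537 and 4615 CPM. Dendritic cell markers there summed to 80.0 and 148 CPM. In dendritic cell-like cells T cell markers summed to 8.02 and 20.3 CPM, and epithelial or MC38 markers to 43.3 and 17.3 CPM. The part of these was not tested. *Hbegf* stood at 3.76 in T cell-like cells, where 9 of 15 UMIs were in 1 cell and the lower limit without the top cells was -0.16, which puts 0 within the interval, and at -0.24 in macrophage-like cells.

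Among macrophage subclusters, *Ereg* stood at 2.53 in subcluster 3, where 11 of 23 UMIs were in 1 cell and the value without the top cells was 0.15 (-3.12 to 2.48), and at -2.81 in subcluster 2, where without the top cells it was -4.23 (-7.32 to -2.30). *Areg* stood at 0.73 in subcluster 6 (82 UMIs) and at -1.28 in subcluster 1 (1534 UMIs). Without the top cell of each group the value in subcluster 6 was 0.69 (-0.20 to 1.54). For *Hbegf* the values were 0.57 in subcluster 2 and -1.12 in subcluster 6, the latter from 51 UMIs and, without the top cells, -0.97 (-2.39 to 0.22), which holds 0. For *Errfi1* they were 0.61 in subcluster 2 and -0.48 in subcluster 1, from 1669 and 8277 UMIs.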

How the results depend on the processing

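Each log2 ratio in macrophage-like cells was recomputed under 17 other settings and 5 more added after seeing the data (thinning to 3000 UMIs, the unnamed cluster counted as macrophage-like, the top cell of each group left out, and a first draw of each thinning). *Ereg* was below 0 and below the median gene in all 22, from -2.78 to -1.18. *Hbegf* was below both in all 22, from -0.58 to -0.11, but not in every further draw of the thinning given below. Settings that change only the total or scaling factor of a group shift every gene alike. In these the distance to the median gene could not change. All settings use the same pools and are not independent of each other. *Areg* was below 0 in 17 and above in 5, and *Errfi1* in 19 and 3. A direction is given for neither.

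Without scaling for depth the values were -1.85 for *Ereg*, -0.42 for *Areg*, -0.58 for *Hbegf* and -0.35 for *Errfi1*, beside a median gene of -0.38, so the shift is that of all genes. Weighted by the subcluster shares of control they were -1.84 (*Ereg*), -0.43 (*Areg*) and -0.25 (*Errfi1*). *Areg* was -0.29 without the macrophage-like cluster of the lowest depth (1119 cells, median 3959 UMIs). *Errfi1* was -0.069 with at least 500 genes, 0.065 with at most 10% mitochondrial UMIs, -0.054 without doublet removal, -0.072 as the mean of UMIs per 10000 and 0.060 on the scale of ln(1 + UMIs per 10000), where the median gene was -0.13. The cause was not tested.

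Thinning is a random draw. To 1000 UMIs it gave -1.18 (*Ereg*), -0.26 (*Areg*) and -0.14 (*Errfi1*), and to 3000 UMIs 0.27 for *Areg*. The draw in use is that of the shares of cells, and was set so after a first draw had been seen. The first draw gave -2.78, 0.30 and -0.10 at 1000 UMIs and 0.13 for *Areg* at 3000. Over 20 further draws *Ereg* at 1000 UMIs ranged from -1.98 to -0.63, around an expected value of -1.43 from 57.6 and 19.3 UMIs, and *Areg* from -0.49 to 0.18 (expected value 0.015). *Hbegf* ranged from -0.63 to 0.35 (expected value -0.13 from 78.1 and 64.5 UMIs) and *Errfi1* from -0.19 to 0.03, so at 1000 UMIs the direction of *Hbegf* depends on the draw. At 3000 UMIs *Hbegf* ranged from -0.38 to -0.0060 and *Areg* from 0.080 to 0.32 (expected value 0.17), above 0 in each draw. *Ereg* there ranged from -1.59 to -0.97 (expected value -1.24), and the draw in use, at -1.71, lies outside that range.

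The share of all genes past 1.5-fold in either direction was 6.64%. It was 13.4% with at least 20 UMIs, 4.37% with at least 500 and 1.47% past 2-fold. The cause was not tested here either. No paired analysis was possible because each group was 1 pool. Values for T cell-like and neutrophil-like cells are limited by the number of cells (185 and 72) and their depth (medians of 3286 and 1769 UMIs).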

Other observations

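These values were added after the data had been seen and are descriptions. When macrophage-like cells were split by their UMIs into 4 bins of equal size, *Ereg* in the shallowest bin (647 to 5441.75 UMIs) was even, in 725 control cells and 1041 telmisartan-treated cells (10.5 and 10.7 CPM), a log2 ratio of 0.04 (-0.70 to 0.80). In the next bins it was -2.17 (-2.88 to -1.51), -1.59 (-2.10 to -1.12) and -1.72 (-2.22 to -1.24). *Areg* went from 0.70 (0.34 to 1.07) in the shallowest bin, with 36.0 and 58.4 CPM, through 0.07 and -0.22 to -0.27 (-0.45 to -0.08) in the deepest. *Hbegf* was -0.15 (-0.64 to 0.34), -0.25 (-0.65 to 0.15), -0.37 (-0.71 to -0.04) and -0.24 (-0.53 to 0.05) from the shallowest to the deepest bin. Of these intervals, only that at -0.37 is clear of 0. *Errfi1* was -0.16, -0.28, 0.03 and -0.02. Its level was higher in shallow cells of both groups, with 396 and 354 CPM in the shallowest bin and 264 and 260 CPM in the deepest.

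Cells left out by the quality limits or by doublet removal carried these genes too. Among cells over the mitochondrial limit (3586 control cells, median 946 UMIs, and 5373 telmisartan-treated cells, median 1006 UMIs), *Ereg* had 10.3 CPM (47 UMIs) in control and 3.72 CPM (26 UMIs) in the telmisartan-treated group, a log2 ratio of -1.47 (-2.22 to -0.75). In kept macrophage-like cells it was -1.51. The cells over the limit were of all types and came from the same pools, so their value is not a second observation. *Areg* there had 43.2 and 32.0 CPM (-0.43, -0.71 to -0.15), *Errfi1* 131 and 110 CPM (-0.24) and *Hbegf* 6.80 and 8.15 CPM (0.26, -0.39 to 0.94). Among the 543 control and 399 telmisartan-treated cells removed for their Scrublet scores, *Ereg* had 31 and 6 UMIs, a log2 ratio of -1.71 (-3.26 to -0.43), and *Areg*, *Hbegf* and *Errfi1* stood at -0.42, -0.45 and -0.25.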
